A study of Triticum aestivum with 8 samples.

Results

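Of the 37826 non-control probes on a wheat oligonucleotide array, 40 were well above background on all 8 arrays and met a fold rule. After growth at 4 °C their signal was at least 4-fold higher than at 24 °C, in leaf and in crown. The 40 were found by a rule on the measured signals. The processed signal of each spot was log2-transformed and the 75th percentile of its array was subtracted, so that a level of 0 is the 75th percentile of the probes on that array. A probe was kept where the scanner software flagged it well above background on all 8 arrays, and where the mean at 4 °C exceeded the mean at 24 °C by at least 2 on the log2 scale in both tissues. The plants were a synthetic hexaploid wheat line, a bread wheat made by crossing ancestral species. There were 2 arrays in each of 4 groups. The controls were leaf and crown of plants at the end of 3 weeks at 24 °C, and the cold samples came from plants then kept at 4 °C, for 12 weeks before leaf was taken and for 6 weeks before crown was taken. The labels give the leaf tissue as the first leaf and the crown tissue as shoots that hold the shoot apical meristem. The description of the crown controls speaks of seedling leaves, while their title, source and tissue labels say crown, and they are called crown here.

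Wheat exposed to weeks of low but non-freezing temperature becomes hardier towards frost, a process called cold acclimation. In cereals, transcription factors of the CBF/DREB family are known to turn on cold-responsive genes, among them those of dehydrins and chloroplast-directed COR proteins. Long cold also brings about vernalization, the gain of the ability to flower, which is known to act in the shoot apex and in leaves. The crown is the organ from which winter wheat regrows, and its survival is known to set winter survival.

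Nearly all probes carry only the name of a contig or clone, and the files used here do not pair those names with genes. Of the 40 probes, 22 are named as wheat0130Contig, 6 as MUGEST2003_23lib_Contig, 6 by a wh or rwh clone, 2 by a MUG clone, 2 as whsh_allContig, and 2 by a sequence accession, AB076807 and U73216. The reference gene table used here holds neither accession, so no gene is named for any of the 40. The wheat0130Contig names made up 55% of the 40 and 41.9% of the 24596 probes well above background on all 8 arrays. The rwh clone names made up 5% of the 40 and 12.3% of those 24596. The 6 probes of the array that carry a gene name (RD29A, RD29B, cor47, Wcor15, DREB2A and DREB2B) are all named for genes of the cold or drought response, and 0 of the 6 were among the 40. Wcor15 met the fold part of the rule in both tissues, but 0 of its 4 signals at 24 °C were well above background. RD29A, cor47, DREB2A and DREB2B were well above background on 0 of the 8 arrays, so the rule could not keep them. RD29B was well above background on all 8 and lower at 4 °C, with a change of -1.90 in leaf and -0.59 in crown. For comparison, the 40 were 0.163% of the 24596 probes. No probe carried a name from the lists of leaf, meristem, vernalization or fructan genes, so the tissue labels were not checked against markers.

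On each array between 72.1% and 85.6% of the non-control probes were well above background, and none was saturated. The groups were scanned on 4 different days, 1 day for each, the leaf controls on a separate scanner, and the leaf controls, the crown controls and the cold groups were read with different versions of the scanner software. Temperature therefore cannot be told apart from scan day or from plant age, nor tissue from the number of weeks at 4 °C. The lowest signals flagged well above background were between -6.35 and -6.04 on the control arrays and between -8.47 and -7.89 on the cold arrays. The number of arrays limits the precision: with 2 against 2, an exact two-sided permutation test cannot give a p below 0.333. The labels state 2 independent experiments per group. A p-value here sets a difference against the spread between such arrays, pooled over the 4 groups and drawn towards a value shared by all probes. The material is whole tissue, so a higher signal through more cells of a type and one through more RNA per cell cannot be told apart.

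The rule left few probes. In leaf alone 574 of the 24596 probes were higher at 4 °C by the required 2, and the 40 were 6.97% of these. In crown alone 820 were, and the 40 were 4.88% of these. A further 106 probes passed the fold part of the rule in both tissues but were not well above background everywhere. All 106 were dim on control arrays, 28 in leaf alone, 37 in crown alone and 41 in both tissues, and 0 were dim on a cold array. The 40 probes are thus those whose 24 °C signal could itself be measured.

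Because the rule used the cold change of both tissues, these changes are described without a test. The median change of the 40 was 3.12 in leaf, between 2.09 and 6.43, and 2.34 in crown, between 2.00 and 6.28. Over the 24596 probes the median was -0.12 in leaf and 0.12 in crown. For comparison, 12.9% of all probes tested in leaf and 20.4% of those tested in crown were called higher at 4 °C by limma at a Benjamini-Hochberg adjusted p under 0.05 and at least 2-fold; nothing is read from this for the 40, which were chosen on the same contrasts. In all 40 both cold arrays lay above both control arrays in leaf and in crown. This follows from the required mean difference of 2, since the arrays of a group differed by at most 1.12 among the 40. It is therefore no separate result. The smallest gap between a cold and a control array was 1.88 in leaf and 1.85 in crown. The group means of the 40 ran from -5.86 to 1.60 in leaf controls, from -2.70 to 4.84 in cold leaves, from -5.77 to 3.00 in crown controls and from -3.24 to 5.47 in cold crowns. The change was larger in leaf for 25 probes and larger in crown for 15, a split that turned to 13 and 27 with scaling to spike-in controls and to 18 and 22 after a normexp background correction. It was below 2.5 in crown for 22 probes and in leaf for 11. A change of at least 16-fold was reached by 9 probes in leaf, by 9 in crown and by 4 in both. After normexp these counts were 5, 5 and 1, the last being wheat0130Contig5942.

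**Figure D1:**
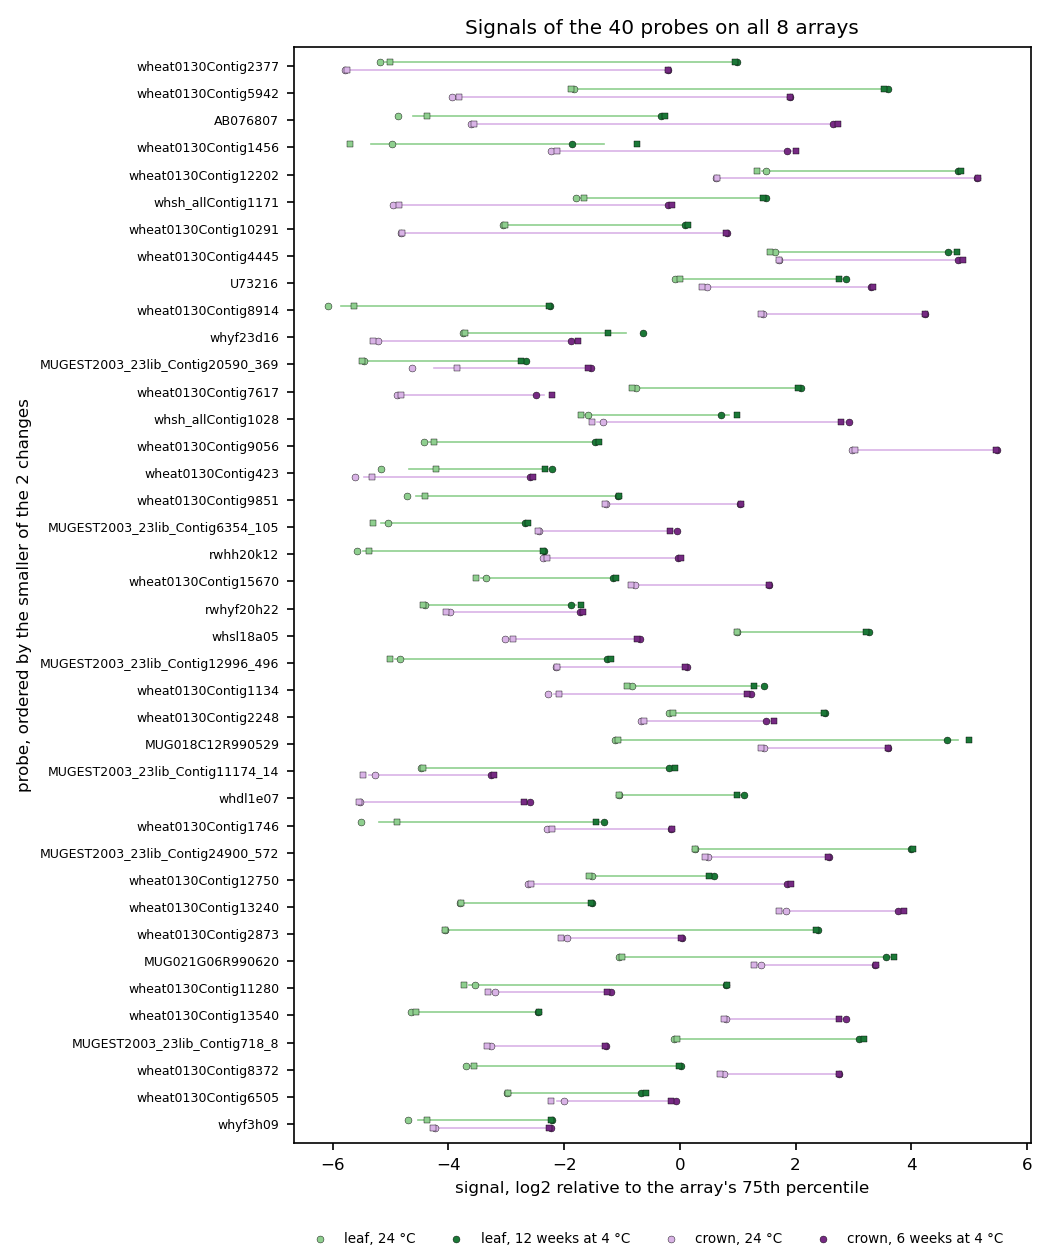
The log2 signal relative to the array's 75th percentile is shown for each of the 40 probes on all 8 arrays, ordered by the smaller of the 2 cold changes. Circles are the arrays of replicate 1 and squares those of replicate 2, and lines join group means. For every probe the cold arrays lie to the right of the control arrays of the same tissue, as the rule all but requires. The distance between the green (leaf) and purple (crown) pairs varies from near 0 to over 7.

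Probe wheat0130Contig2377 had the largest change when each probe is ranked by the smaller of its changes in leaf and crown. In leaf it stood at a mean of -5.09 ± 0.13 (SD, n = 2) at 24 °C and at 0.97 ± 0.03 at 4 °C. In crown it stood at -5.79 and -5.76 at 24 °C and at -0.20 on both arrays at 4 °C. Its signal was thus near the detection limit in both control groups and near the 75th percentile in both cold groups. The change was 66.9-fold in leaf and 47.6-fold in crown, that is 6.06 and 5.57 on the log2 scale, which fell to 4.27 and 3.68 after normexp. The crown control mean lay only 0.32 above the limit of its arrays.

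Probe wheat0130Contig5942 started higher. Its leaf arrays read -1.82 and -1.88 at 24 °C and 3.59 and 3.53 at 4 °C. Its crown arrays read -3.94 and -3.82 at 24 °C and 1.90 on both at 4 °C. This is 42.6-fold in leaf and 55.0-fold in crown. Leaf was above crown at both temperatures under the main scaling, by 4.08-fold and 3.16-fold; with scaling to spike-in controls the crown minus leaf difference was -0.93 at 24 °C and -0.004 at 4 °C on the log2 scale, and both calls were lost. It was one of the 4 probes that differed by at least 16-fold in both tissues from control signals, which here lay more than 2 above the detection limit.

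AB076807 had the largest crown change of the 40. Its crown signals were -3.61 and -3.56 at 24 °C and 2.65 and 2.73 at 4 °C, 77.5-fold higher. Its leaf signals were -4.87 and -4.37 at 24 °C and -0.32 and -0.26 at 4 °C, 20.1-fold higher, a log2 change of 4.33 that fell to 2.84 after normexp. The cold crown arrays were the highest of the 8 by almost 3 on the log2 scale. U73216, the other probe named by an accession, was above 0 on 6 of the 8 arrays: its leaf mean was -0.04 ± 0.05 (SD, n = 2) at 24 °C and 2.81 ± 0.09 at 4 °C. In crown the means were 0.42 ± 0.06 and 3.32 ± 0.02. These are changes of 7.22-fold in leaf and 7.46-fold in crown.

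The fourth probe at 16-fold or more in both tissues, wheat0130Contig1456, was the least precise of them. In leaf it gave -4.98 and -5.70 at 24 °C and -1.86 and -0.75 at 4 °C. In crown it gave -2.23 and -2.13, and then 1.86 and 2.01. The cold leaf arrays differed from each other by 1.12, the widest gap between paired arrays among the 40, so its 16.4-fold leaf change is less certain than its 17.3-fold crown change. After normexp its log2 changes of 4.04 and 4.11 fell to 2.10 and 3.70.

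Another 4 probes completed the 8 that changed at least 8-fold in both tissues. Probe wheat0130Contig12202 was high throughout, with leaf means of 1.41 ± 0.11 and 4.84 ± 0.04 (SD, n = 2) at 24 °C and 4 °C and crown means of 0.64 ± 0.01 and 5.14 ± 0.02. Probe wheat0130Contig4445 was as high, with leaf means of 1.60 ± 0.06 and 4.71 ± 0.10 and crown means of 1.71 ± 0.01 and 4.85 ± 0.07. Its changes were the nearest to equal among the strongest 10 probes, 8.66-fold in leaf and 8.79-fold in crown. The other probes of these 4 changed more in crown than in leaf. For wheat0130Contig12202 the log2 changes were 3.42 in leaf and 4.50 in crown. Probe whsh_allContig1171 changed by 9.06-fold in leaf and 26.8-fold in crown, and wheat0130Contig10291 by 8.88-fold in leaf and 48.8-fold in crown.

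Other probes changed far more in one tissue and stood close to the required 2 in the other. Probe wheat0130Contig2873 had the largest leaf change of the 40: it read -4.06 on both leaf arrays at 24 °C and 2.38 and 2.35 at 4 °C, 86.0-fold higher. In crown it read -1.96 and -2.05, and then 0.04 and 0.03, which is 4.11-fold. MUG018C12R990529 changed 60.0-fold in leaf, from -1.09 ± 0.04 to 4.81 ± 0.27 (SD, n = 2), and 4.49-fold in crown, from 1.45 and 1.40 to 3.59 and 3.60. Probe wheat0130Contig12750 went the other way, with 4.25-fold in leaf and 22.4-fold in crown.

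**Figure D2:**
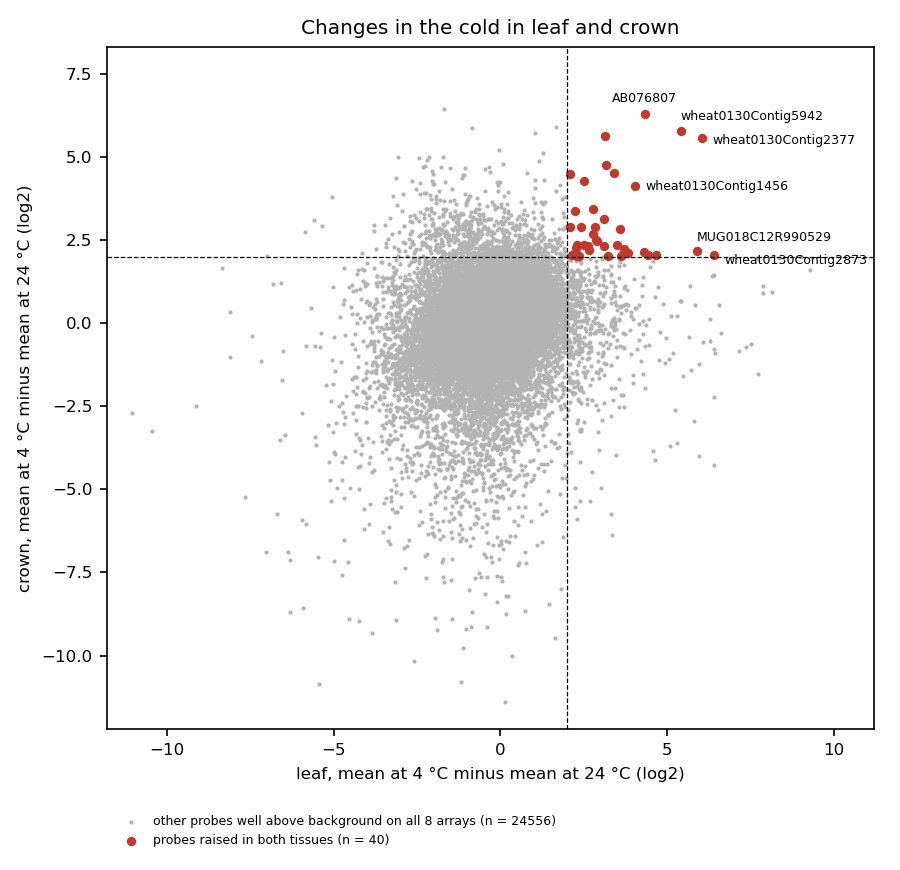
Each point is a probe well above background on all 8 arrays, with the cold change in leaf on the horizontal axis and that in crown on the vertical axis, both as log2 differences of means of 2 arrays. Dashed lines mark the required change of 2; the 40 probes (red) fill the upper right corner, most of them low in it, as 22 have a crown change below 2.5, and AB076807, wheat0130Contig5942 and wheat0130Contig2377 lie far from both lines.

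The required change of 2 cut through a continuous range. The probes just inside it were wheat0130Contig8372, wheat0130Contig6505 and whyf3h09, with crown changes of 2.02, 2.01 and 2.00 and leaf changes of 3.63, 2.36 and 2.31. Just outside it were whsh_allContig778, with 3.08 in leaf and 1.98 in crown, whfl_allContig550, with 9.01 and 1.98, and MUG002E09R990520, with 7.71 and 1.97. Probes with some of the largest leaf changes therefore fell outside by a few hundredths in crown. With a required change of 1.5 the rule kept 157 probes, and with 3 it kept 8. It kept 16 probes, 15 of them among the 40, after a normexp background correction, and 304, with all 40 among them, when arrays were scaled to 7 spike-in controls. Normexp dropped 25 of the 40, and 8 of these had a control mean within 1 of the detection limit in a tissue. Most of the dropped probes thus lay further above the limit. Of the 10 probes with a control mean that near the limit, 2 were kept. Of all 40, 30 were kept whichever array was left out.

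Of the 40, 3 have a partner on the array whose name differs only by a leading r, and the partners gave other values; the files do not say what the r means. Probe rwhh20k12 was higher at 4 °C by 3.12 in leaf and 2.32 in crown, and whh20k12 by 0.64 and 2.57. Probe rwhyf20h22 was higher by 2.63 and 2.31, and whyf20h22 by 0.91 and 0.87. Probe whdl1e07 was higher by 2.11 and 2.89, and rwhdl1e07 by 1.55 and 1.13. All 6 were well above background on all 8 arrays, and within each pair both probes were higher at 4 °C in both tissues.

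The profile of wheat0130Contig2377 was also compared with those of all 24596 probes by Pearson correlation over the 8 arrays, as a description. The most alike were MUGEST2003_23lib_Contig11796_490, wheat0130Contig4964 and wheat0130Contig6687, each with r = 0.998. Their changes were much smaller, 1.64 in leaf and 1.35 in crown for the first, 1.04 and 1.00 for the second and 1.20 and 1.22 for the third, so none of them belongs to the 40. The 8 arrays form pairs within 4 groups, so r here reflects mainly the order and spacing of 4 means.

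The tissues were compared at each temperature, contrasts that the rule did not use although it read the same arrays. Each was tested with limma over all probes, with Benjamini-Hochberg adjustment, and a call needed an adjusted p under 0.05 and at least a 2-fold difference. At 24 °C the crown was higher than the leaf for 17 of the 40, or 42.5%, against 29% of all 29689 probes tested. The leaf was higher for 10, or 25%, against 25.9%. For 13 probes there was no call. Among the 24596 probes well above background on all arrays the shares were 23.8% and 24.9%, so the share higher in leaf was near that of the background and the share higher in crown was above it; the difference of the shares was not tested.

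The widest tissue differences at 24 °C were those of wheat0130Contig9056 and wheat0130Contig8914, both higher in crown. The first read -4.41 and -4.24 on the leaf controls and 2.98 and 3.02 on the crown controls. The second read -6.09 and -5.63 on the leaf controls and 1.43 and 1.41 on the crown controls. The arrays of the tissues were thus about 7 apart on the log2 scale, or 161-fold (adjusted p = 1.82e-08, limma) and 155-fold (adjusted p = 1.49e-07, limma). The leaf control mean of wheat0130Contig8914 lay 0.33 above the detection limit of its arrays. Next in size was wheat0130Contig13240, 47.5-fold higher in crown (limma adjusted p = 2.81e-08). On the log2 scale these 3 differences were 7.33, 7.28 and 5.57, and after normexp 5.78, 4.72 and 4.31.

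In the other direction whdl1e07, wheat0130Contig7617 and whsl18a05 were the furthest apart at 24 °C. Probe whdl1e07 read -1.06 and -1.05 on the leaf controls and -5.53 and -5.54 on the crown controls, 22.3-fold higher in leaf (limma adjusted p = 5.86e-08). Probe wheat0130Contig7617 was 16.6-fold and whsl18a05 15.3-fold higher in leaf, with limma adjusted p-values of 3.13e-07 and 8.16e-08. After normexp the log2 differences of -4.48, -4.06 and -3.94 became -2.56, -2.58 and -3.31. AB076807 was called 2.05-fold higher in crown (adjusted p = 0.00125, limma), but its difference fell below 2-fold with scaling to the median, quantile normalization, the authors' table or without replicate 1 of the leaf controls, where it was 0.79 on the log2 scale, and was 0.20 after normexp (limma adjusted p = 0.34).

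At 4 °C the crown was higher for 16 of the 40, or 40%, against 34.6% of the 32489 probes tested, and the leaf was higher for 12, or 30%, against 23.8%. Among the 24596 probes well above background on all arrays these shares were 28.8% and 24.9%, and the difference of the shares was not tested. For 12 probes there was no call. The counts depended on the scaling. Spike-in controls raised every crown minus leaf difference by 1.101 at 24 °C and by 1.66 at 4 °C on the log2 scale. With them the crown was called higher for 26 and the leaf for 5 at 4 °C, and the leaf for 5 at 24 °C. The same shift applies to all probes of the array. Their shares under it are not given here, so these counts are not read as a trait of the 40. The same probes led at 4 °C as at 24 °C in crown: wheat0130Contig9056 was 120-fold, wheat0130Contig8914 90.0-fold and wheat0130Contig13240 40.8-fold higher there, with limma adjusted p-values of 3.03e-08, 2.58e-07 and 4.29e-08. In leaf the leaders were MUGEST2003_23lib_Contig718_8, at 21.5-fold, wheat0130Contig7617, at 21.2-fold, and whsl18a05, at 15.5-fold, with limma adjusted p-values of 4.67e-08, 2.55e-07 and 9.59e-08. None of these 6 changed direction under any scaling tried.

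The tissue calls at 24 °C and at 4 °C were set side by side under the main scaling. The 17 probes higher in crown at 24 °C split as follows in the cold: 14 were called higher in crown again at 4 °C, 2 higher in leaf and 1 in neither. Of the 10 higher in leaf at 24 °C, 6 were called higher in leaf again, 1 higher in crown and 3 in neither. Of the 13 without a call at 24 °C, 8 had none at 4 °C, 4 were higher in leaf and 1 was higher in crown. The sign of the tissue difference was the same at both temperatures for 31 of the 40. The matching counts over all probes are not given here, so lasting tissue differences are not read as a trait of the 40.

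For some probes the tissue difference exceeded the cold change itself. In 8 probes the mean of the crown controls lay above that of the cold leaves, among them wheat0130Contig9056, whose crown controls were at 3.00 ± 0.03 (SD, n = 2) and whose cold leaves were at -1.43 ± 0.05. In 4 probes the mean of the leaf controls lay above that of the cold crowns. One was whsl18a05, with leaf controls at 0.99 ± 0.00 and cold crowns at -0.71 ± 0.04. The others were wheat0130Contig7617, whdl1e07 and MUGEST2003_23lib_Contig718_8.

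**Figure D3:**
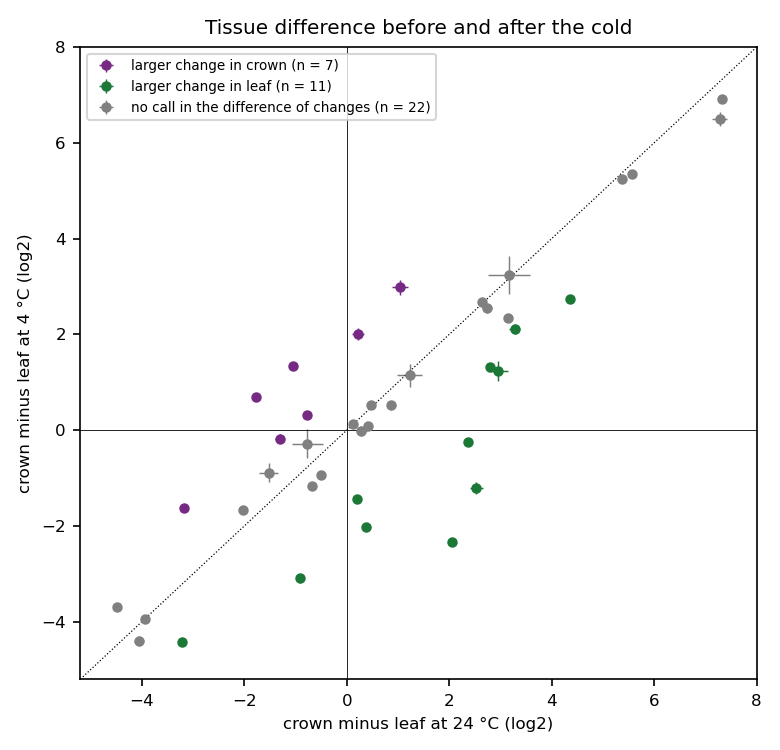
The difference between crown and leaf (log2) at 24 °C on the horizontal axis is set against that at 4 °C on the vertical axis for the 40 probes, with bars of 1 standard error from the limma fit. Points on the dotted line had the same tissue difference at both temperatures; the 11 green points lie below it (larger cold change in leaf) and the 7 purple points above it (larger cold change in crown). Scaling to spike-in controls would shift all points upward and to the right.

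The cold changes were compared between the tissues by the interaction term of the fit, the change in crown minus the change in leaf. This is the difference of the changes that the rule used, each with its own minimum of 2, so neither the counts nor the p-values below are independent of how the 40 were chosen, and their share is not set against other probes as a result. The change was called larger in crown for 7, or 17.5%, where 29.3% of all 32796 probes tested were, and larger in leaf for 11, or 27.5%, where 16.4% were. The other 22 had no call, which does not make their changes equal. Some missed only the 2-fold minimum, such as whdl1e07, at 1.72-fold with a limma adjusted p of 0.000707. Another was rwhh20k12, at 1.74-fold with a limma adjusted p of 0.0012. With no fold threshold, the calls of a larger change in leaf were 18. Of the 20 probes called higher in the same tissue at both temperatures, 13 had no call in the interaction. In 7 of the 40 none of the 3 tissue comparisons gave a call under the main scaling. These were wheat0130Contig4445, U73216, wheat0130Contig423, rwhyf20h22, wheat0130Contig2248, wheat0130Contig6505 and whyf3h09. They ranged from bright, with cold leaf means of 4.71 ± 0.10 for wheat0130Contig4445 and 2.81 ± 0.09 for U73216 (SD, n = 2), to dim, with -2.22 ± 0.01 for whyf3h09 and -2.27 ± 0.09 for wheat0130Contig423. With scaling to spike-in controls their crown minus leaf differences at 4 °C ran from 0.71 for wheat0130Contig2248 to 2.17 for U73216 and wheat0130Contig6505. In between lay wheat0130Contig4445 at 1.79, rwhyf20h22 at 1.75, whyf3h09 at 1.63 and wheat0130Contig423 at 1.37.

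Among the probes with a larger change in leaf, wheat0130Contig2873 and MUG018C12R990529 stood apart, because the tissue in which they were higher changed. Probe wheat0130Contig2873 was 4.15-fold higher in crown at 24 °C (limma adjusted p = 4.51e-07) and 5.03-fold higher in leaf at 4 °C (limma adjusted p = 3.05e-07). The interaction was -4.39 with a standard error of 0.0767 (limma adjusted p = 8.64e-07). MUG018C12R990529 was 5.75-fold higher in crown at 24 °C and 2.33-fold higher in leaf at 4 °C, with limma adjusted p-values of 6.67e-06 and 0.000194; its interaction was -3.74 with a standard error of 0.177 (limma adjusted p = 1.66e-05). With scaling to spike-in controls its difference at 4 °C turned to 0.44 in favour of crown, while that of wheat0130Contig2873 kept its direction and fell below 2-fold.

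MUG021G06R990620, wheat0130Contig11280 and MUGEST2003_23lib_Contig11174_14 followed in size. MUG021G06R990620 had a mean of -1.03 ± 0.04 (SD, n = 2) on the leaf controls and 3.63 ± 0.09 on the cold leaves, and read 1.40 and 1.28 on the crown controls and 3.38 and 3.39 on the cold crowns. It was 5.17-fold higher in crown at 24 °C (limma adjusted p = 8.16e-07), and at 4 °C the tissues differed by -0.25, less than 2-fold; scaling to spike-in controls made this 1.41. At 4 °C the leaf arrays were slightly the higher under the main scaling, where they had been the lower at 24 °C. Probe wheat0130Contig11280 differed by 1.30-fold between leaf and crown at 24 °C, with means of -3.64 ± 0.13 and -3.26 ± 0.09 (SD, n = 2), and stood at 0.80 ± 0.01 and -1.22 ± 0.04 at 4 °C. The interactions of MUG021G06R990620, wheat0130Contig11280 and MUGEST2003_23lib_Contig11174_14 were -2.62, -2.41 and -2.18, with limma adjusted p-values of 8.47e-06, 1.83e-05 and 2.86e-05. MUGEST2003_23lib_Contig24900_572, among the 5 brightest of the 40 in the cold, also had the larger change in leaf. Its leaf means were 0.27 ± 0.00 and 4.01 ± 0.02 and its crown means 0.47 ± 0.04 and 2.57 ± 0.02 (SD, n = 2) at 24 °C and 4 °C, an interaction of -1.64 (limma adjusted p = 1.08e-05). At 4 °C it was 2.71-fold higher in leaf (limma adjusted p = 1.29e-06), which turned to 0.22 in favour of crown with scaling to spike-in controls.

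Among the probes with a larger change in crown, wheat0130Contig10291 and wheat0130Contig12750 led. Probe wheat0130Contig10291 read -3.06 and -3.01 on the leaf controls and 0.08 and 0.14 on the cold leaves, against -4.82 and -4.80 on the crown controls and 0.81 and 0.79 on the cold crowns. The crown was thus the lower tissue at 24 °C, 3.41-fold below leaf (limma adjusted p = 6.33e-07), and slightly the higher at 4 °C, by 1.61-fold (limma adjusted p = 4.17e-05), which is short of the 2-fold limit. With scaling to spike-in controls the 24 °C difference was -0.67 and no longer called. Its interaction was 2.46 with a standard error of 0.0721 (limma adjusted p = 3.21e-06). Probe wheat0130Contig12750 was 2.08-fold higher in leaf at 24 °C (limma adjusted p = 1.17e-05) and 2.54-fold higher in crown at 4 °C (limma adjusted p = 4.08e-06). It was the only probe called in leaf at one temperature and in crown at the other in that order, and with scaling to spike-in controls its 24 °C difference was 0.04.

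AB076807, whsh_allContig1028 and whsh_allContig1171 completed the 5 with the largest excess in crown. Their interactions were 1.95, 1.78 and 1.56, with standard errors of 0.224, 0.171 and 0.104 and limma adjusted p-values of 0.00055, 0.00026 and 5.95e-05. Probe whsh_allContig1028 was at -1.65 ± 0.08 in leaf and -1.42 ± 0.12 in crown at 24 °C (SD, n = 2; limma adjusted p = 0.133), and 4.02-fold higher in crown at 4 °C (limma adjusted p = 1.64e-05). Probe whsh_allContig1171 was 9.11-fold higher in leaf at 24 °C and 3.09-fold higher there at 4 °C, with limma adjusted p-values of 2.63e-07 and 4.42e-06; the latter difference was 0.03 in favour of crown with scaling to spike-in controls. After normexp its 24 °C difference of -3.19 became -1.89 and its interaction fell to 0.18. Normexp also moved the interactions of wheat0130Contig2873, wheat0130Contig11280, wheat0130Contig10291 and AB076807, to -3.34, -1.63, 1.60 and 2.72, each in the same direction. By contrast the interaction of wheat0130Contig4445 was 0.02 with a standard error of 0.101 (limma adjusted p = 0.854), and that of U73216 was 0.05 with a standard error of 0.0964 (limma adjusted p = 0.665).

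**Figure D4:**
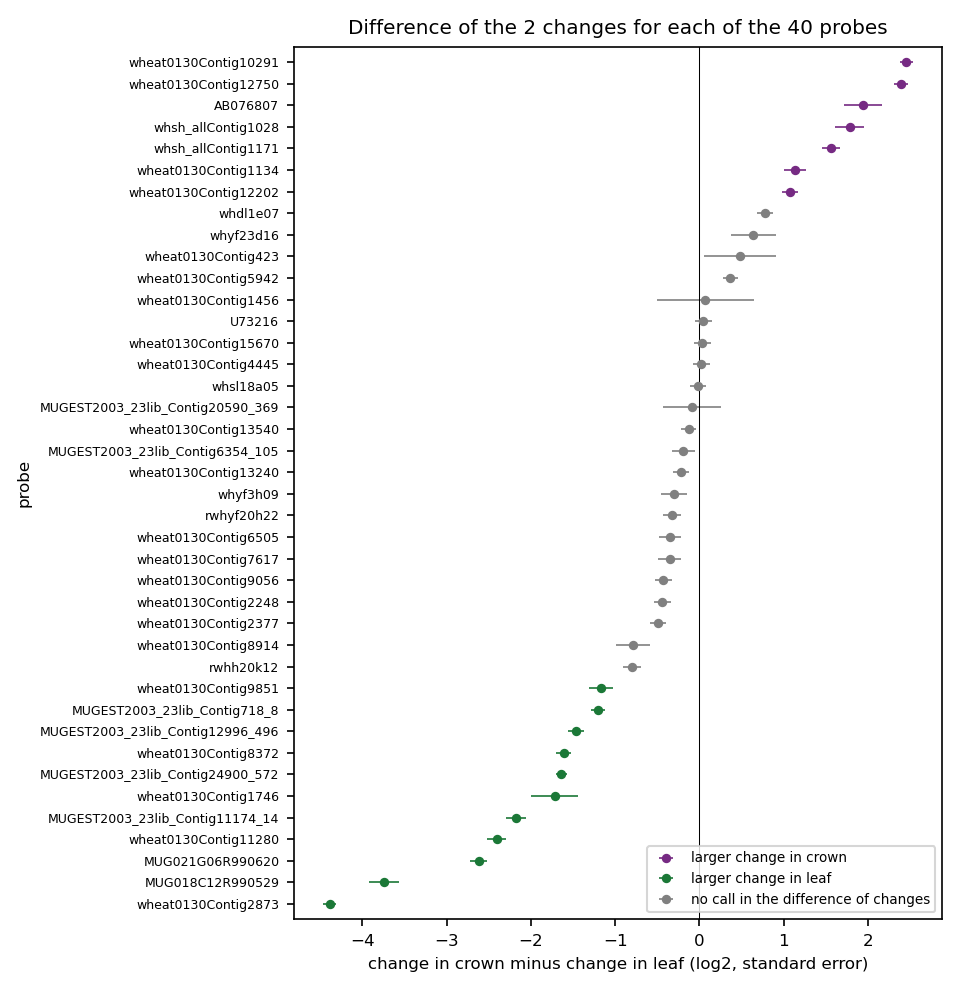
For each of the 40 probes the change in crown minus the change in leaf (log2) is shown with 1 standard error from the limma fit over 8 arrays. The values run from -4.39 for wheat0130Contig2873 to 2.46 for wheat0130Contig10291, and 22 probes (grey) were not called. Of the 18 called, only that of wheat0130Contig9851 changed sign under a scaling, normalization or background correction tried, to 0.11 after normexp.

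Tissue of higher control signal and size of the cold change were set side by side. Among the 17 with the higher control signal in crown, 7 had the larger change called in leaf, 1 in crown (AB076807) and 9 in neither. Among the 10 with the higher control signal in leaf, 4 had the larger change called in crown, 1 in leaf (MUGEST2003_23lib_Contig718_8) and 5 in neither. Both comparisons share the control arrays, so no relation is read from these counts.

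The arrays of a group differed about as much for the 40 as for other probes. The median difference between the arrays of a group was 0.0869 in leaf controls, 0.0621 in cold leaves, 0.0664 in crown controls and 0.0438 in cold crowns. For the 24556 other probes well above background on all arrays it was 0.0858, 0.0764, 0.0680 and 0.0592. No spot of the 40 was flagged as an outlier on any array.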

How the data were processed

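RNA of 4 groups of 2 samples each was labelled with Cy3 and hybridised to 1-colour Agilent arrays; samples were grouped by their titles. Per the file headers, the authors' scanner files hold intensity values from Agilent Feature Extraction 9.5.3.1 (leaf, 24 °C), 10.5.1.1 (both cold groups) and 10.7.3.1 (crown, 24 °C), already background-subtracted; the submitters' processing notes name 9.5. Flags of kind other, per the file headers, gave the spots well above background and the 1417 control spots set aside. The authors also deposited a table of intensity, each array multiplied by 1 factor (0.993 to 1.89) whose origin is not given in the sources used here.

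Values were taken to log2, less the array's 75th percentile. With limma 3.58.1 (R 4.3.3) the 4 group means were estimated jointly from the 8 arrays (4 residual and 1.55 prior degrees of freedom). A contrast was tested for probes well above background in at least 1 group compared, on both its arrays, with Benjamini-Hochberg adjustment over all of them. Fits were tested on simulated data. Counts, folds and figures came from Python 3.11.15 with pandas 2.3.3 and matplotlib 3.10.9.

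The 40 probes, the gene-name lists and the tests were chosen with earlier results of these data known. Probes named in the text were those with an accession, the 8 with the largest smaller change, the 5 brightest in the cold, the 5 or 3 most extreme in each direction of a tissue comparison, the probe with the most equal changes among the 10 with the largest smaller change, and those nearest the threshold. Partner probes, probes without a tissue call and examples of reversed order were named after their values were seen. Alternatives were other scalings and normalizations, the authors' table, normexp (offset 50, on median spot signals), a common floor, outlier spots removed, other thresholds and filters, a replicate block and leaving out each array. Arrays with the same replicate number did not deviate together (r between -0.09 and 0.10 over 24596 probes), so the numbers were not taken as pairs. Scan day could not be fitted, since each group has its own.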

Additional observations from a re-analysis of the deposited data

Results flagged for a closer look

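The leaf and crown changes of 18 probes differed when that difference was tested directly (limma interaction) at a Benjamini-Hochberg adjusted p under 0.05 and at least 2-fold. The change was larger in crown for 7 (17.5%) and larger in leaf for 11 (27.5%) of the 40. Of all 32796 probes tested, 29.3% were called larger in crown and 16.4% larger in leaf. On the log2 scale, as crown change minus leaf change, the difference was 2.46 for wheat0130Contig10291, 2.40 for wheat0130Contig12750, 1.95 for AB076807, 1.78 for whsh_allContig1028 and 1.56 for whsh_allContig1171. It was -4.39 for wheat0130Contig2873, -3.74 for MUG018C12R990529, -2.62 for MUG021G06R990620, -2.41 for wheat0130Contig11280 and -2.18 for MUGEST2003_23lib_Contig11174_14. The test uses the changes by which the 40 were chosen, each with a minimum of 2, so it is not independent of that choice. Tissue, weeks at 4 °C, plant age and scan day differ together between these groups and cannot be told apart. Scanner differs for the leaf controls alone, and software version for both control groups.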

How the results depend on the processing

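The count of 40 became 16 after normexp (15 of them the same probes), 304 with scaling to the spike-ins, 157 and 8 with a required change of 1.5 and 3, and 146 either with no condition on background or with it on the 4 cold arrays alone. Leaving out single arrays gave 36 to 45, the lowest without replicate 2 of the crown controls. The median leaf change of 3.12 moved to 3.35 with scaling to the median, 2.19 with normexp and 3.59 with spike-ins, and was 3.07 to 3.13 without single arrays. The median crown change of 2.34 moved to 2.25, 2.19 and 3.37 under these settings and to 2.40 after quantile normalization, and was 2.34 to 2.36 without single arrays. Spike-in scaling moved the median change of the 24596 probes to 0.36 in leaf and 1.15 in crown.

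With spike-in scaling, calls higher in leaf fell from 10 to 5 at 24 °C and from 12 to 5 at 4 °C, and calls higher in crown at 4 °C rose from 16 to 26. That scaling shifts all probes of the array alike, and their shares under it are not given here. With no fold threshold, calls of a larger change in leaf rose from 11 to 18. Without single arrays these counts stayed between 16 and 17 (crown, 24 °C), 10 and 11 (leaf, 24 °C), 16 and 16 (crown, 4 °C), 12 and 13 (leaf, 4 °C), 7 and 7 (larger in crown) and 11 and 12 (larger in leaf). The replicate block, fitted although the numbers were not taken as pairs, gave the same counts of 17, 10, 16, 12, 7 and 11.

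Of 2720 single-probe values under alternatives, 14 changed sign where the main or the alternative value was called, and are listed as reversed. Among the rest, 36 lost the call, 70 gained one and 2600 were counted as the same. These 2600 include changes of sign between values that were both without a call. The sign of the interaction was as in the main fit for 28 of the 40 with spike-in scaling and for 29 with normexp. Reversed with spike-in scaling were the 24 °C difference of wheat0130Contig12750 (0.045) and the 4 °C differences of wheat0130Contig1134 (1.48), whyf3h09 (1.63), MUG018C12R990529 (0.44), wheat0130Contig2377 (0.48), wheat0130Contig423 (1.37), MUG021G06R990620 (1.41), whsh_allContig1171 (0.031) and MUGEST2003_23lib_Contig24900_572 (0.22). Reversed with normexp were the 24 °C difference of MUGEST2003_23lib_Contig20590_369 (-0.063) and the interactions of wheat0130Contig8914 (1.32), wheat0130Contig9851 (0.11), MUGEST2003_23lib_Contig6354_105 (1.11) and wheat0130Contig13540 (1.53). The cause of these changes was not tested. Signals at 24 °C within 1 of the detection limit, in 10 of the 40, limit the size of the change that could be measured.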
